A study of Mus musculus with 46 samples.

Results

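Cathepsins are the main proteases of the lysosome, the acidic compartment in which phagocytic cells take apart what they have engulfed, and cystatins are small proteins that inhibit the cysteine cathepsins. Microglia, the resident macrophages of the brain, carry high levels of several of these transcripts, and cathepsin S in particular trims the invariant chain during MHC class II antigen presentation. Cystatin C is secreted and blocks cysteine cathepsins outside cells, whereas cystatin F acts inside the endolysosome of immune cells, where it restrains the enzymes that activate granule proteases.

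Transcripts of 10 genes of this system were followed: the cysteine cathepsins Ctsb, Ctsc, Ctsh, Ctsl, Ctss and Ctsz, the aspartic protease Ctsd, the serine carboxypeptidase Ctsa, and the inhibitors Cst3 (cystatin C) and Cst7 (cystatin F). They were picked by name, as the genes with these symbols in each of 3 tables of FPKM, a level in which read fragments are scaled to the length of the transcript and to the mapped reads of the library. All 10 were listed in both tables of sorted cells, among 15285 and 19930 genes, and 9 were listed among the 15695 genes of the tissue table, where Cst7 was not analysed.

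RNA was sequenced from 46 mouse libraries to follow microglia that return after depletion with PLX3397, an inhibitor of the CSF1R receptor on which microglia depend, given at 600 ppm in chow. All mice were male C57BL/6, put at about 2 months in the study's text, which does not give 1 age throughout, and controls ate vehicle chow. In the first table, whole subventricular zone (SVZ) tissue came from controls (n = 5), from mice after 14 days of PLX3397 (n = 5), and from mice given 14 days of PLX3397 and then 5 days of recovery on vehicle chow (n = 5). In the second, CD11b+CD45int cells were sorted from whole hemispheres of controls or of mice 28 days after a 14 day course, in which the brain refills from the SVZ and white matter (WM-repopulated). Lipopolysaccharide (LPS), a bacterial cell wall product that sets off inflammation, was injected intraperitoneally at 0.33 mg/kg, 6 or 24 hr before collection. Mice called 0 hr received none. Control cells numbered 3, 5 and 4 libraries at 0, 6 and 24 hr, and WM-repopulated cells 4 at each time. The third table held the same sorted cells from controls (n = 4) and from mice 28 days after a 7 day course, in which surviving microglia refill the whole brain (GLOBAL-repopulated, n = 3). No source states that animals were pooled, so each library was taken as 1 mouse. A gate on CD11b and CD45 can hold other myeloid cells, and the SVZ libraries hold every cell of the tissue.

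The sorted libraries carried the 8 microglial markers examined (P2ry12, Tmem119, Cx3cr1, Siglech, Sall1, Csf1r, Aif1 and Fcrls), none of them at 0 throughout any group, with a summed level of 4159 to 14761 FPKM in the LPS table and 9011 to 11327 FPKM in the GLOBAL table. Markers of neurons summed to 1.11 to 8.05 FPKM in the LPS table and those of astrocytes to 37.2 to 77.0 FPKM. Neutrophil markers (6 of 6 listed) were far higher and uneven, at 417 to 15120 FPKM in the LPS table. Depth recovered from the FPKM steps was 4570000 to 10610000 reads per SVZ library, 5240000 to 10380000 in the LPS table and 2210000 to 5370000 in the GLOBAL table. A member with few reads is accordingly less precise: Cst7 rested on 60 to 444 reads per library in the LPS table and 14 to 73 in the GLOBAL table, and in the SVZ Ctss rested on 2 to 1007, Ctsc on 24 to 169 and Ctsh on 55 to 154.

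Stretches upstream of the start sites are shown so that members that moved together or apart can be read beside their sequence. Windows of 250 bases before the start (RefSeq, GRCm38.p6) were found for 8 of the 10 members, and both strands were searched for CACGTG, the core element read by the MiT factors that drive lysosomal genes, for GAAANNGAA, taken from the element read by interferon regulatory factors, for GAGGAAGT, an element read by the myeloid factor PU.1, and for GGANTTTCC, taken from the element read by NF-kappaB. Of 32851 windows of all genes, 6.02% held CACGTG, 7.13% GAAANNGAA, 2.44% GAGGAAGT and 1.07% GGANTTTCC. Ctsa had a window at each of 2 annotated starts, so there were 9 windows. CACGTG lay upstream of Ctsd, Ctsl and 1 of the Ctsa starts, while the other Ctsa window (chr2:164832622-164832871) held none of the 4 motifs. GAAANNGAA lay upstream of Ctss, GAGGAAGT upstream of Ctsc, 151 bases before the start, and GGANTTTCC upstream of Ctsl, 45 bases before the start. No match overlapped another. Ctsb and Ctsh had no window. Capitals mark the motif in the stretches around CACGTG, which lay 12 bases before that start of Ctsa, 245 and 98 bases before that of Ctsd and 236 bases before that of Ctsl.
Ctsa, chr2:164833749-164833778, plus strand: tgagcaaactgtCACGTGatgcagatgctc
Ctsd, chr7:142388055-142388077, minus strand: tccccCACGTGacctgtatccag
Ctsd, chr7:142387908-142387937, minus strand: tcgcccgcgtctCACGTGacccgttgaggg
Ctsl, chr13:64370739-64370768, minus strand: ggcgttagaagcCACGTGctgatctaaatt
The first of these overlapped an exon in 4, an intron in 2 and lay outside 10 of the transcripts annotated there by GENCODE. The stretch nearer to the Ctsd start overlapped an exon of 1 transcript and lay outside 2, and the farther one lay outside all 3. That of Ctsl overlapped an exon of 1 transcript and an intron of 1 and lay outside 5.

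The whole windows of Ctss and Cst7 are given because Ctss had the largest fold change of the members in the SVZ and Cst7 the largest against 0 hr after LPS in control cells. Both windows lay outside every annotated transcript of their gene. In Ctss, capitals mark GAAACCGAA, 21 bases before the start. In Cst7 none of the 4 motifs was found, and there are no capitals.
Ctss, chr3:95526536-95526785, plus strand: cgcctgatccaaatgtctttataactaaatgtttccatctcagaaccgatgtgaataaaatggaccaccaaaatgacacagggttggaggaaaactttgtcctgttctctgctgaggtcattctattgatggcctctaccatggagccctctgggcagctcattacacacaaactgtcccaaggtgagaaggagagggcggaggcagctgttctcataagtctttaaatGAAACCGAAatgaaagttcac
Cst7, chr2:150570165-150570414, plus strand: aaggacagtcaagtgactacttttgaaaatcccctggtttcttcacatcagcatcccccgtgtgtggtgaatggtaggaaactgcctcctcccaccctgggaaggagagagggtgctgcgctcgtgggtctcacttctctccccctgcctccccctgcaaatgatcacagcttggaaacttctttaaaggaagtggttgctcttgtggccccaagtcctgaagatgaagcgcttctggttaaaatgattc
A match describes letters in a window and is neither a binding site nor a cause of a change.

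In control cells without LPS, cystatin C stood far above the proteases. Cst3 was at 29613, 31649 and 28556 FPKM, and was the most abundant transcript of all in every sorted library without LPS. Below it came Ctss at 7715 ± 798 FPKM (SD, n = 3), Ctsd at 5691 ± 943 and Ctsz, an exopeptidase, at 2165 ± 115. Ctsb, an abundant lysosomal endopeptidase with exopeptidase activity, and Ctsa, which protects beta-galactosidase and neuraminidase in the lysosome, followed at 793 ± 92.5 and 706 ± 31.9 FPKM, and these neighbours in the order overlapped. Ctsh, an aminopeptidase, was at 534 ± 40.2 FPKM and overlapped Ctsl, an endopeptidase, at 489.9 ± 39.8. Ctsc, which activates granule serine proteases, had 328 ± 22.9 FPKM, and Cst7 was lowest at 13.6 ± 3.56. Together the members took 9.36 to 10.1% of the summed FPKM of a control library without LPS.

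In whole SVZ tissue of control mice the order per transcript length was another. Cst3 again led, at 2377 ± 70.0 FPKM (SD, n = 5), followed by Ctsd at 428 ± 121 and Ctsb at 209 ± 20.1 FPKM. Ctsz (96.8 ± 11.97), Ctss (73.9 ± 10.7), Ctsl (57.7 ± 15.2) and Ctsa (50.1 ± 7.39 FPKM) came next, each overlapping its neighbour in this order, and Ctsh (10.6 ± 1.17) overlapped Ctsc (7.01 ± 4.39 FPKM) at the bottom. The members made up 0.714 to 0.779% of the summed FPKM of these libraries.

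SVZ tissue after 14 days of PLX3397 was compared with control to see which of these transcripts changed in the depleted tissue. Ctss, Ctsc, Ctsh and Ctsd fell, in that order of size, and no member rose. That is 4 of the 9 members called by limma at an adjusted p under 0.05, where 1.26% of all 14151 genes tested were called and 0.0565% were called higher and 1.21% lower. The median log2 fold change was -0.40 over the 9 members and 0.01 over all genes. In bulk tissue, fewer cells of a type and less RNA per cell cannot be told apart.

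Ctss was at 59.7, 67.3, 87.8, 76.6 and 78.1 FPKM in the controls and at 0.4927, 0.487, 0.143, 0.232 and 0.402 FPKM after PLX3397. Every treated library lay under every control, and the treated mean was 0.475% ± 0.212 (SD, n = 5) of the control mean (log2 fold change of FPKM + 1 -5.79, SE 0.165, limma adjusted p = 3e-13), a scale that understates the change of a gene this low. Microglial markers measured the same way kept a median of 1.06% of their control means over 8 genes, with a range of 0.223 to 77.0%, so Ctss lay inside their range. Markers of border-associated macrophages (4 of 5 listed), macrophages at the surfaces of the brain, summed to 3.48 to 7.39 FPKM in controls, 1.18 to 2.45 FPKM after PLX3397 and 1.22 to 2.97 FPKM in recovery, without overlap with the controls. Their part in the members' falls was not tested.

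Ctsc was at 14.8, 3.98, 6.01, 5.23 and 5.06 FPKM in controls against 1.44, 1.53, 1.97, 1.02 and 1.98 FPKM after PLX3397, and kept 22.6% ± 5.76 of its control mean (log2 fold change of FPKM + 1 -1.51, SE 0.232, limma adjusted p = 0.000836). For a gene this low that scale again understates the change. Ctsh was at 12.6, 10.1, 10.6, 9.78 and 9.97 FPKM in controls against 5.0, 4.94, 5.81, 5.41 and 6.15 FPKM, and kept 51.5% ± 4.90 (log2 fold change -0.84, SE 0.10, limma adjusted p = 4.29e-05). Neither gene's groups overlapped, and the first control library stood above the other controls in both.

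Ctsd was at 636, 334, 357, 416 and 394 FPKM in controls against 255, 263, 240.2, 278 and 249.7 FPKM, so that 60.1% ± 3.30 of its control mean was left (log2 fold change -0.69, SE 0.162, limma adjusted p = 0.0451). The groups did not overlap, but this call was lost without the variance trend (adjusted p = 0.0528), with a replicate block (0.0730) and on leaving out any of 12 of the 15 libraries. The first control library carried a summed choroid plexus marker level (4 of 5 markers listed) of 21303 FPKM, against 23.3 to 125 FPKM in the other controls, and the highest Ctsa, Ctsc, Ctsd, Ctsh, Ctsl and, by less than 1 FPKM, Ctsz of its group. Without it, Ctsc kept 31.3%, Ctsd 68.5% and Ctsl 89.1% of the control mean after PLX3397, and Ctsd was no longer called (log2 fold change -0.54, limma adjusted p = 0.0735).

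The other members kept most of their level. Ctsz was left at 75.5% ± 6.13 of its control mean (SD, n = 5; log2 fold change -0.40, limma adjusted p = 0.165) and Cst3 at 85.2% ± 4.47 (-0.23, adjusted p = 0.563), and for both genes the treated libraries lay under all controls without passing the test. Ctsl at 79.2% ± 6.68, Ctsa at 90.2% ± 3.57 and Ctsb at 94.0% ± 3.36 overlapped the controls.

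**Figure D1:**
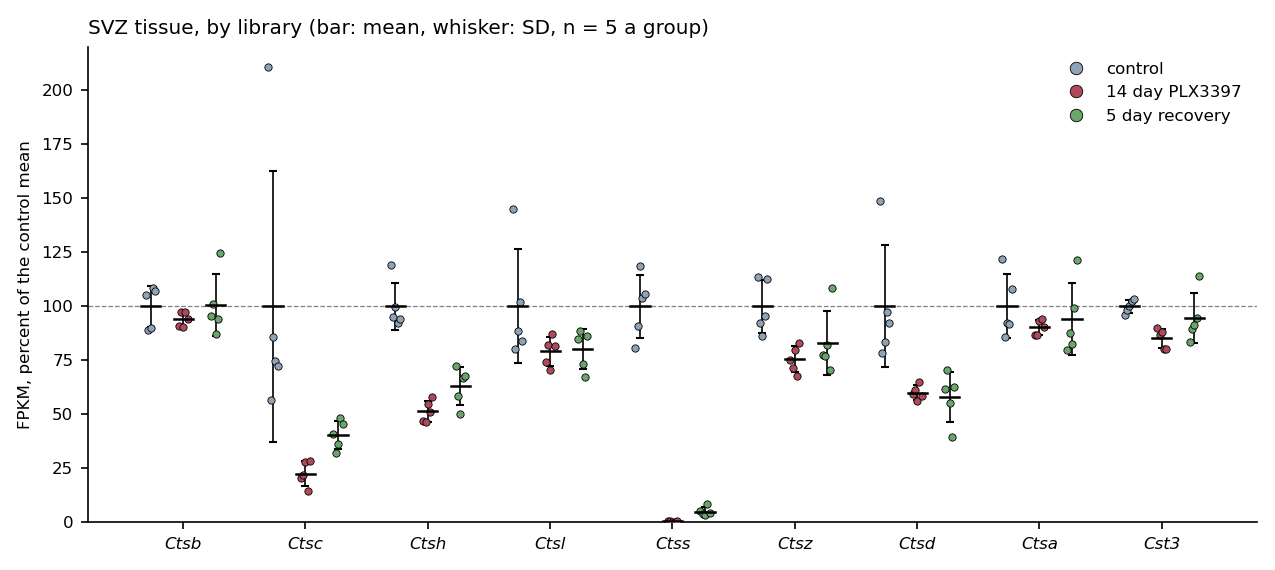
SVZ tissue level of each of the 9 listed members as a percent of its control mean (vertical axis, linear from 0), for control, PLX3397 and recovery tissue. Points are libraries (n = 5 per group), horizontal bars the group means and whiskers the SD, and the dashed line marks 100% of control. Ctss fell to 0.475% of control and stood at 5.05% after recovery, whereas Ctsb was at 94.0% and 100.5%.

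After 5 days of recovery, Ctss was at 3.98, 2.87, 2.54, 6.18 and 3.09 FPKM. All 5 libraries lay above all PLX3397 libraries and under all controls. Its level was 5.05% ± 1.99 of the control mean, against a median of 4.73% for the microglial markers. Its mean was 10.6-fold that after PLX3397. The log2 fold change of FPKM + 1 was 1.77 (SE 0.165, limma adjusted p = 2.23e-05), a scale that understates the change of a gene this low. Ctss was the 1 member of 9 called between these groups, where 0.325% of all genes were called (0.290% higher and 0.0353% lower), and all 22 alternatives kept the call.

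Against control, recovery tissue was still lower in Ctss, Ctsh and Ctsd, 3 of 9 members where 1.27% of all genes were called (0.184% higher and 1.09% lower). The log2 fold change of FPKM + 1 of Ctss was -4.02 (SE 0.165, limma adjusted p = 4.98e-11), and the members' median was -0.29 against -0.01 over all genes. Ctsh stood at 7.67, 6.21, 5.30, 7.07 and 7.18 FPKM, 63.0% ± 8.82 of control (log2 fold change -0.60, SE 0.10, limma adjusted p = 0.00238). Ctsd stood at 263, 301, 236, 169 and 269 FPKM, 57.9% ± 11.6 of control (log2 fold change -0.77, SE 0.162, limma adjusted p = 0.0194), with no library as high as any control. That call was lost when the PLX3397 libraries were left out of the fit (adjusted p = 0.109).

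Ctsc in recovery was at 2.86, 2.26, 2.55, 3.39 and 3.18 FPKM, above every PLX3397 library and under every control, at 40.6% ± 6.52 of the control mean. It did not pass against control (log2 fold change -0.93, limma adjusted p = 0.0651) or against PLX3397 (0.58, adjusted p = 0.251). It was called lower than control without the first control library (-0.66, adjusted p = 0.0216) and without the second (-1.07, adjusted p = 0.0343). Neutrophil markers (2 of 6 listed) summed to 1.71 to 15.01 FPKM in recovery and 0.558 to 3.17 FPKM in controls, erythrocyte markers (4 of 4 listed) to 91.3 to 336 and 32.4 to 79.3 FPKM, and astrocyte markers (6 of 6 listed) to 1630 to 2589 and 1159 to 1618 FPKM, with no overlap in the erythrocyte and astrocyte sums. Their part in these values was not tested.

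In sorted control cells, LPS moved the members in opposite directions within 6 hr. Ctsh, Cst3, Ctsd and Ctsa fell by about the same amount and Cst7 and Ctsc rose, which is 6 of 10 members called where 42.5% of all 12684 genes tested were called (21.4% higher and 21.1% lower). With a background that high, nothing was read from the count. The median log2 fold change was -0.21 over the members and 0.01 over all genes. The microglial markers fell as well, 7 of 8 called lower at 6 hr in either origin, with a median log2 fold change of -1.53 in control and -1.48 in WM-repopulated cells. Their sum was 12395 to 14761 FPKM in control cells at 0 hr, 4159 to 6122 at 6 hr and 4603 to 8454 at 24 hr, and 12619 to 14702, 4607 to 5081 and 6071 to 7930 FPKM in WM-repopulated cells. Border-associated macrophage markers summed to 31.7 to 99.3, 10.4 to 22.3 and 32.7 to 39.8 FPKM at 0, 6 and 24 hr in control cells and to 17.8 to 27.6, 7.65 to 10.8 and 9.32 to 18.2 FPKM in WM-repopulated cells, so both origins were lower at 6 hr without overlap. In control cells oligodendrocyte markers (5 of 6 listed) summed to 31.7 to 39.5, 19.1 to 29.1 and 10.7 to 27.3 FPKM at these times, astrocyte markers to 57.6 to 62.7, 57.0 to 77.0 and 39.5 to 44.5 FPKM, and choroid plexus markers to 73.9 to 218, 95.7 to 1357 and 35.4 to 52.6 FPKM. The part of these shifts in the members' changes was not tested.

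The inhibitors went opposite ways. Cst3 was at 14452, 19011, 12819, 14212 and 13576 FPKM at 6 hr, each under all 3 libraries without LPS, a fall of 1.03 on the log2 scale (SE 0.166, limma adjusted p = 2.46e-05), which became -0.45 under quantile normalization, which forces the libraries onto 1 distribution (adjusted p = 0.118). Cst7 was at 15.7, 15.6 and 9.48 FPKM without LPS and at 37.0, 53.4, 30.9, 62.8 and 41.4 FPKM at 6 hr. It was 3.32-fold higher in the means, with no overlap (log2 fold change 1.65, SE 0.254, limma adjusted p = 1.37e-05).

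Among the proteases, Ctsh showed the tightest change, from 531, 575 and 495 FPKM to 249.8, 272, 259, 255 and 247 FPKM at 6 hr (log2 fold change -1.05, SE 0.109, limma adjusted p = 5.08e-08). Ctsd went from 4669, 5876 and 6528 to 3237, 2984, 2974, 2826 and 2499.7 FPKM (-0.96, SE 0.208, adjusted p = 0.000615), and Ctsa from 736, 709 and 672 to 337, 402, 367, 380.4 and 349.6 FPKM (-0.94, SE 0.140, adjusted p = 8.06e-06). For all 3 genes every library at 6 hr lay under every library without LPS.

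Ctsc rose from 327, 352 and 306 to 436, 417, 633, 584 and 539.8 FPKM, without overlap (log2 fold change 0.65, SE 0.195, limma adjusted p = 0.00926). Ctsb (0.12), Ctsl (0.28), Ctss (-0.23) and Ctsz (-0.18 on the log2 scale) overlapped between the times and did not pass. In Ctsl 1 library at 6 hr reached 1148 FPKM while the other 4 lay between 437 and 607 FPKM, and without it the fold change was 0.04.

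By 24 hr the control cells had a different set of levels: Ctsh had turned from lower to higher, Ctsc had gone on rising, Ctsl was up, and Cst3 and Ctsd stayed low. Against 0 hr, 4 members were higher and 3 lower, 7 of 10 where 21.3% of all genes were called (12.1% higher and 9.23% lower). The members' median was 0.22 on the log2 scale against 0.01 over all genes.

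Ctsh was at 729.9, 824, 688 and 772 FPKM at 24 hr, above every library at either earlier time. That is a log2 fold change of 0.50 over 0 hr (SE 0.114, limma adjusted p = 0.00292) and of 1.55 over 6 hr (SE 0.10, adjusted p = 4.59e-10), or 2.94-fold between the 6 and 24 hr means. Ctsc was at 913, 879, 850.4 and 892 FPKM, 2.69-fold above 0 hr (log2 fold change 1.43, SE 0.204, limma adjusted p = 2.28e-05) and above every library at 6 hr as well (0.78, adjusted p = 0.00206). Both genes thus had their highest control level at 24 hr.

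Ctsl was at 974, 893, 965 and 761 FPKM at 24 hr, above all libraries without LPS (log2 fold change 0.87, SE 0.229, limma adjusted p = 0.00818). Cst7 was at 52.1, 45.4, 44.0 and 43.2 FPKM, above all libraries without LPS and within the range at 6 hr (1.72 over 0 hr, SE 0.266, adjusted p = 5.7e-05). Neutrophil markers summed to 6268 to 15120 FPKM at 24 hr, 874 to 5626 at 6 hr and 1772 to 8660 at 0 hr, and monocyte markers (4 of 4 listed) to 426 to 541, 1141 to 2266 and 100.5 to 324 FPKM. Their part in the rise of Ctsc and Cst7 was not tested.

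Cst3 was at 11528, 12292, 12688 and 12555 FPKM at 24 hr, 2.44-fold under 0 hr (log2 fold change -1.29, SE 0.174, limma adjusted p = 1.19e-05). Quantile normalization made this -0.17 (adjusted p = 0.662). Ctsd was at 3082, 2683, 3194 and 1290.4 FPKM (-1.22, SE 0.217, adjusted p = 0.000274), and 1 library stood well under the other 3. Ctsa at 529.9, 540.3, 565 and 352 FPKM was part of the way back, under 0 hr (-0.53, SE 0.146, adjusted p = 0.0113, or 0.0734 in a fit of these groups alone) and above 6 hr (0.41, adjusted p = 0.0177), with the same library lowest and inside the 6 hr range.

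From 6 to 24 hr, 6 of 10 members rose and none fell in control cells (limma, where 28.3% of all genes were called, 15% higher and 13.3% lower). Besides Ctsh, Ctsc and Ctsa these were Ctsl (log2 fold change 0.59, limma adjusted p = 0.0294), Ctss (0.38, adjusted p = 0.0322) and Ctsz (0.47, adjusted p = 0.00854), and the members' median was 0.40 against 0.00 over all genes. The count fell to 3 without the second or the third control library at 24 hr, and to 2 in a fit of these groups alone. Only the calls of Ctsc and Ctsh held in all 31 alternatives.

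**Figure D2:**
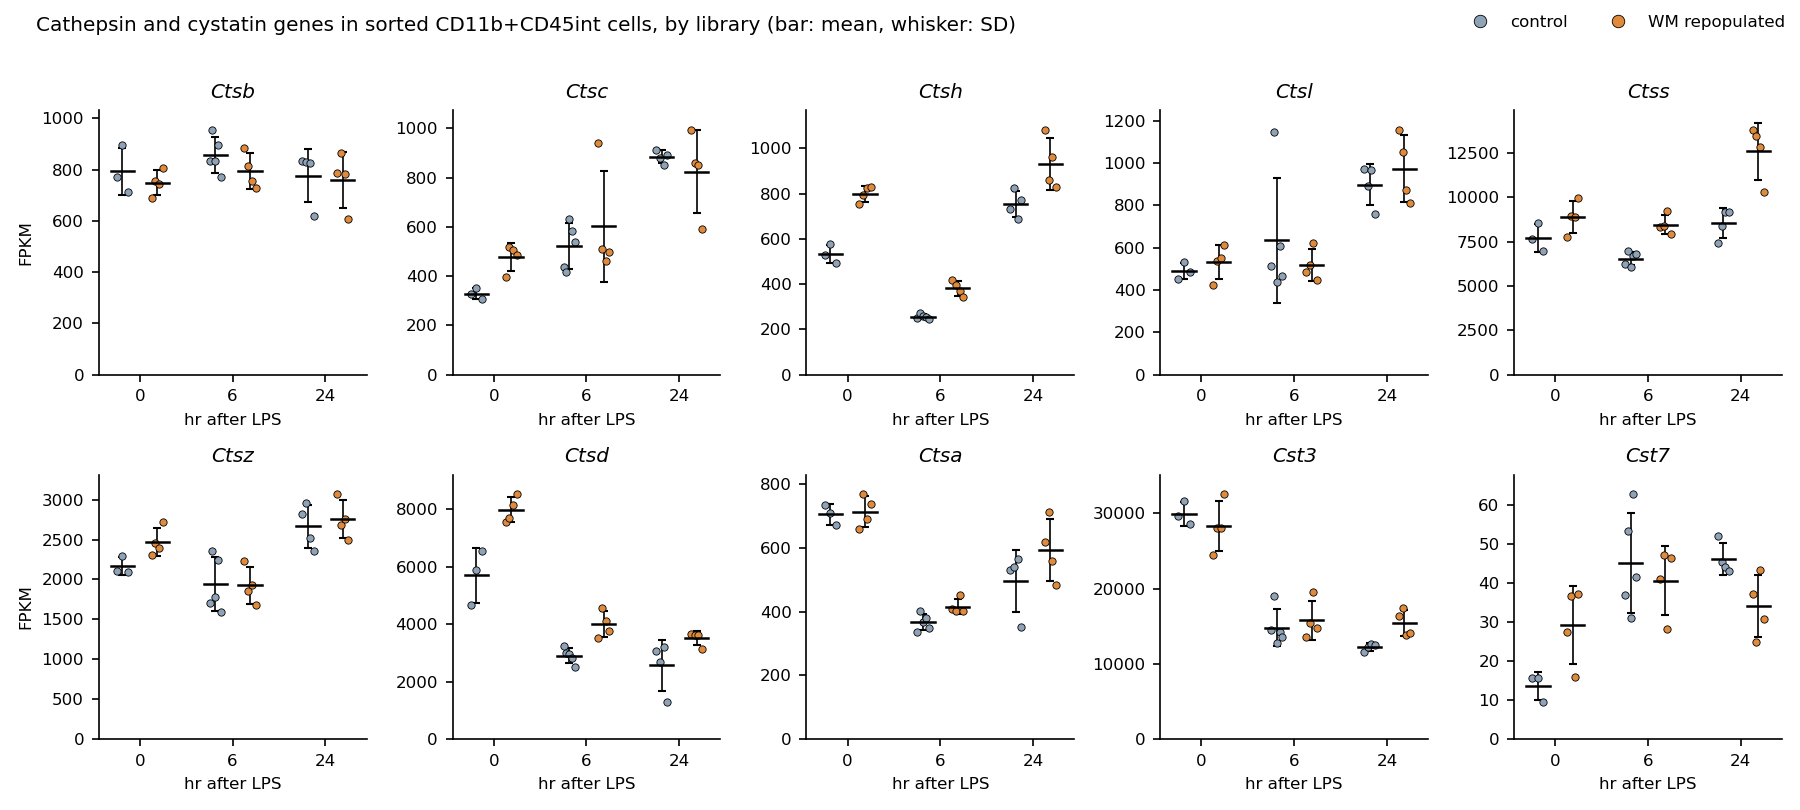
FPKM of the 10 members in each sorted library at 0, 6 and 24 hr after LPS (linear axes from 0, 1 panel per gene with its own scale), for control and WM-repopulated cells. Points are libraries (n = 3, 5 and 4 for control, 4 at each time for WM), horizontal bars the group means and whiskers the SD. Ctsh dips at 6 hr in both origins, Cst3 and Ctsd drop and stay low, and Ctss at 24 hr lies at 7418 to 9175 in control and 10278 to 13802 in WM cells.

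In WM-repopulated cells the changes at 6 hr were falls. Ctsa, Ctsd, Ctsh, Ctsz and Cst3 were lower at 6 hr than at 0 hr and no member was called higher, 5 of 10 where 38.8% of all genes were called (19.3% higher and 19.5% lower). The members' median log2 fold change was -0.22, against -0.005 over all genes. Monocyte markers summed to 122 to 384 FPKM at 0 hr, 1146 to 3185 at 6 hr and 126 to 649 at 24 hr in these cells, and choroid plexus markers to 281 to 717, 157 to 599 and 10.5 to 32.0 FPKM. Their part in the members' changes was not tested.

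Ctsh went from 753, 793, 825 and 828 to 418, 395, 369.8 and 341 FPKM (log2 fold change -1.07, SE 0.106, limma adjusted p = 3e-08). Ctsd went from 7562, 7697, 8141 and 8518 to 3526, 4574, 4097 and 3767 FPKM (-1.005, SE 0.201, adjusted p = 0.000327). Cst3 went from 24469, 28076, 28003 and 32539.6 to 13599.7, 15379, 19557 and 14719.9 FPKM (-0.84, SE 0.161, adjusted p = 0.000195). In each of these genes all 4 libraries at 6 hr lay under all 4 at 0 hr.

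Ctsa went from 659, 769, 691 and 739.6 to 409, 403, 451 and 403 FPKM (log2 fold change -0.78, SE 0.135, limma adjusted p = 7.12e-05), also without overlap. Ctsz was lower by less, at 2229, 1857, 1934 and 1675 FPKM against 2310.0, 2452, 2397 and 2725 (-0.37, SE 0.137, adjusted p = 0.0376), a call that 23 of 31 alternatives kept and that quantile normalization took to -0.003. Cst7 at 40.9, 47.1, 28.1 and 46.4 FPKM overlapped its 0 hr level of 27.4, 36.8, 16.03 and 37.1 FPKM (0.50, SE 0.246, adjusted p = 0.113, or a fold change of 0.25 without the third library at 0 hr and of 0.66, adjusted p = 0.0495, without the third at 6 hr), and Ctsc overlapped too (0.28, adjusted p = 0.261). The 1 WM library at 6 hr with 939 FPKM of Ctsc, against 459.7 to 508 in the other 3, also had a neutrophil marker sum of 10054 FPKM against 417 to 800 in those 3, and the part of those cells was not tested. Without it the fold change of Ctsc was 0.04 (adjusted p = 0.871).

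At 24 hr Ctsc, Ctsl and Ctss were higher than at 0 hr in WM-repopulated cells and Ctsd and Cst3 lower, 5 of 10 members where 18.8% of all genes were called, 10.5% higher and 8.29% lower (median 0.18 against 0.02 over all genes). Ctss was at 13802, 13443, 12812 and 10278 FPKM, above its 0 hr levels of 7762, 8943, 8866 and 9953 FPKM in every library (log2 fold change 0.50, SE 0.138, limma adjusted p = 0.0129), a call lost with no filter on low values (adjusted p = 0.0752) and under quantile normalization (fold change 0). Ctsl was at 1156, 1051, 873 and 812 FPKM against 425, 535, 553 and 614 (0.87, SE 0.212, adjusted p = 0.00524). Neither gene's groups overlapped.

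Ctsc stood at 993, 858, 849 and 590.2 FPKM at 24 hr against 397, 519.6, 507 and 487 FPKM at 0 hr in WM-repopulated cells (log2 fold change 0.77, SE 0.189, limma adjusted p = 0.00566). Ctsd at 3662, 3611, 3636 and 3132 FPKM had not moved back (-1.19 from 0 hr, SE 0.201, adjusted p = 0.000177), nor had Cst3 at 16293, 17437, 13889 and 14083 FPKM (-0.87, SE 0.161, adjusted p = 0.000417). Ctsh, at 1081, 859, 962 and 828 FPKM, was back at or above its 0 hr level without passing the test (0.21, adjusted p = 0.167).

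From 6 to 24 hr, 5 of 10 members rose in WM-repopulated cells and none fell, where 15.7% of all genes were called, 8.19% higher and 7.50% lower (median 0.50 against 0.02 over all genes). The largest was Ctsh (log2 fold change 1.28, SE 0.106, limma adjusted p = 9.36e-08), followed by Ctsl (0.90, adjusted p = 0.00477), Ctss (0.57, adjusted p = 0.00653), Ctsz (0.52, adjusted p = 0.0111) and Ctsa (0.50, adjusted p = 0.0130). Ctsc did not pass (0.49, adjusted p = 0.0802), but was called without the first library at 6 hr (0.72, adjusted p = 0.00443) or the fourth at 24 hr (0.64, adjusted p = 0.0285). Quantile normalization left 3 of these calls, and it also ended the call of Cst3 against 0 hr at either time in WM-repopulated cells (-0.33 at 6 hr, adjusted p = 0.239). Cst3 ranked 1 and Ctss ranked 2 among all genes in every WM library at 0 and 24 hr, so that this method gives them equal values there and their differences at 24 hr became 0.

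**Figure D3:**
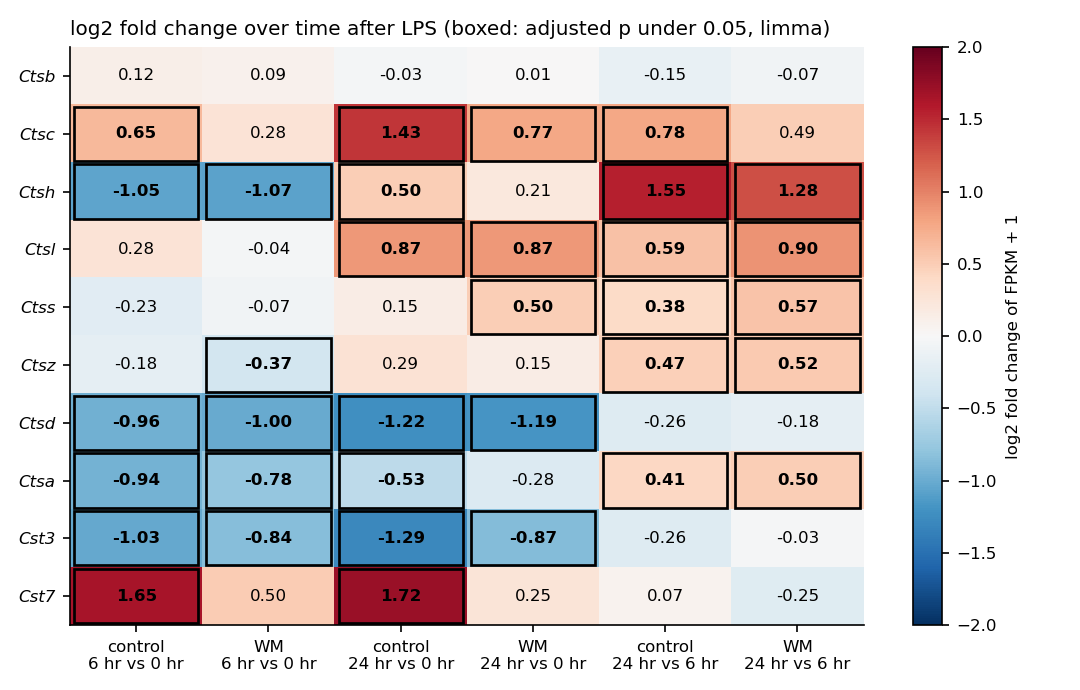
Grid of log2 fold changes on FPKM + 1, with members in rows and, in columns, 6 hr against 0 hr, 24 hr against 0 hr and 24 hr against 6 hr of LPS in control and in WM-repopulated cells. Red is higher and blue lower at the later time, and boxed bold values passed an adjusted p under 0.05 by limma. At 6 hr Ctsh lies at -1.05 in control and -1.07 in WM cells, and Cst7 lies at 1.65 in control and 0.50 in WM cells.

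Whether the LPS response depended on origin was tested as the interaction. No member passed at 6 hr or at 24 hr, where 0.0237% of all genes passed by limma at 6 hr (0.0237% higher and 0.00% lower) and 0.0867% at 24 hr (0.0158% higher and 0.0710% lower; 913 and 1105 of 12684 at an unadjusted p under 0.05). The members' unadjusted p was under 0.05 for Cst7 at both times and for Ctsc at 24 hr. For Cst7 the log2 fold change in WM-repopulated minus that in control cells was -1.15 at 6 hr (SE 0.354, limma adjusted p = 0.523) and -1.47 at 24 hr (SE 0.362, adjusted p = 0.119). Leaving out the third WM library at 0 hr, the one at 16.03 FPKM, made the latter -1.72 with an adjusted p of 0.0435, the 1 alternative of 31 in which it passed. For Ctsc it was -0.66 at 24 hr (SE 0.278, adjusted p = 0.487).

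The levels of Cst7 without LPS stood apart as well. It was at 29.3 ± 9.94 FPKM in WM-repopulated cells (SD, n = 4) against 13.6 ± 3.56 in control cells (n = 3), and no WM library lay under a control, but the difference did not pass (log2 fold change 1.02, SE 0.266, limma adjusted p = 0.0600). At 6 hr the origins overlapped (-0.13, adjusted p = 0.935). At 24 hr Cst7 was at 37.1, 24.9, 43.5 and 30.7 FPKM in WM-repopulated cells, 3 of the 4 under every control library (-0.45, adjusted p = 0.35).

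Set side by side at each time, WM-repopulated cells differed from control cells in few members. At 0 hr the 1 member called was Ctsh, where 1.21% of all genes were called (0.717% higher and 0.497% lower), and the members' median was 0.20 on the log2 scale against 0.01 over all genes. Ctsh was higher in all 4 WM libraries than in any control (799.9 ± 34.8 against 534 ± 40.2 FPKM, log2 fold change 0.58, SE 0.114, limma adjusted p = 0.00965). The call was lost without the third control library at 0 hr (adjusted p = 0.0554), and Cst7 joined it when the second or the third control library at 6 hr, or the third WM library at 0 hr, was left out.

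At 6 hr Ctsh was again the 1 member called, at 381 ± 32.8 against 256 ± 9.78 FPKM with no overlap (log2 fold change 0.57, SE 0.10, limma adjusted p = 0.00671), where 0.323% of all genes were called (0.213% higher and 0.110% lower). A fit of these groups alone lost it (adjusted p = 0.0850). At 24 hr the difference in Ctsh was smaller, 933 ± 115 against 754 ± 58.1 FPKM, and did not pass (0.30, SE 0.106, adjusted p = 0.112), although every WM library still lay above every control.

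Ctss was the 1 member called at 24 hr, where 3.97% of all genes were called (1.68% higher and 2.29% lower). It was at 7418, 8392, 9175 and 9172 FPKM in control and at 13802, 13443, 12812 and 10278 FPKM in WM-repopulated cells, with no overlap (log2 fold change 0.56, SE 0.138, limma adjusted p = 0.0219). At 0 and 6 hr it was higher by 0.20 and 0.37 without passing (adjusted p = 0.640 and 0.308), although its groups did not overlap at 6 hr. The 24 hr call was lost under no filter on low values (adjusted p = 0.111), quantile normalization (0.244), a fit of the 24 hr groups alone (0.159), and on leaving out the first or second control or any of the first 3 WM libraries at 24 hr (0.0537 to 0.0783). At 24 hr border-associated macrophage markers summed to 32.7 to 39.8 FPKM in control and 9.32 to 18.2 FPKM in WM-repopulated cells, choroid plexus markers to 35.4 to 52.6 and 10.5 to 32.0 FPKM (1 of 5 at 0 in every WM library), and neutrophil markers to 6268 to 15120 and 3121 to 7095 FPKM. The sums of the first and second list did not overlap between the origins, and the part of any of the 3 lists in the difference in Ctss was not tested.

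Ctsd was higher in WM-repopulated cells by 0.50, 0.46 and 0.54 on the log2 scale at 0, 6 and 24 hr, without passing at any time (limma adjusted p = 0.344, 0.443 and 0.144), and its groups did not overlap at 0 and 6 hr. Without the fourth control library at 24 hr its difference at that time was 0.23. Ctsc was higher by 0.53 at 0 hr (adjusted p = 0.245, or 0.0392 in a fit of these groups alone) and overlapped afterwards. Ctsa, Ctsb, Ctsl, Ctsz and Cst3 differed from control by 0.32 at most on the log2 scale at every time, and none of these differences passed. The groups still did not overlap for Ctsz at 0 hr, Ctsa at 6 hr and Cst3 at 24 hr, each higher in WM-repopulated cells. Markers of border-associated macrophages (5 of 5 listed) summed to 17.8 to 27.6 FPKM in WM-repopulated and 31.7 to 99.3 FPKM in control cells at 0 hr, and choroid plexus markers (5 of 5 listed) to 281 to 717 and 73.9 to 218 FPKM. Endothelial markers (3 of 4 listed) summed to 4.51 to 6.996 and 8.90 to 13.3 FPKM, astrocyte markers (6 of 6) to 38.1 to 52.4 and 57.6 to 62.7 FPKM and oligodendrocyte markers (5 of 6) to 28.4 to 31.3 and 31.7 to 39.5 FPKM. None of these sums overlapped between the origins. Their part in these differences was not tested.

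In GLOBAL-repopulated cells no member passed against control, and no gene of 16651 did (0.00% by limma, with 1504 at an unadjusted p under 0.05). The members' median log2 fold change was 0.24, against 0.01 over all genes. Ctsh came nearest, at 337, 336 and 404 FPKM against 268, 261, 204 and 279.7 FPKM (log2 fold change 0.51, SE 0.15, limma adjusted p = 0.361). Ctss was at 3442, 3977 and 4232 FPKM against 2938, 2941, 2557 and 3004 (0.44, SE 0.167, adjusted p = 0.492), and Ctsc at 174, 164 and 161 against 140.2, 137, 98.5 and 118 FPKM (0.44, SE 0.148, adjusted p = 0.449). In all 3 genes every GLOBAL-repopulated library lay above every control. Groups of 3 and 4 libraries can lie apart without a difference, so nothing was read from this.

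The remaining members overlapped between the GLOBAL groups. Cst3 was at 17376, 19469 and 21184 FPKM against 14087, 14726, 15994 and 23003 (log2 fold change 0.21, limma adjusted p = 0.812, or a fold change of 0.37 without the fourth control), and Cst7 at 8.61, 13.8 and 12.8 against 10.2, 6.44, 6.16 and 12.1 FPKM (0.41, adjusted p = 0.640). Ctsa, Ctsb, Ctsd, Ctsl and Ctsz differed by -0.03 to 0.26. Neutrophil markers summed to 1265 to 4565 FPKM in GLOBAL-repopulated and 2098 to 22592 FPKM in control cells. Border-associated macrophage markers (5 of 5 listed) summed to 13.7 to 16.95 and 23.4 to 32.1 FPKM endothelial markers (4 of 4 listed) to 8.03 to 13.3 and 15.7 to 22.8 FPKM, and astrocyte markers (6 of 6 listed) to 24.6 to 29.4 and 29.5 to 32.9 FPKM, all without overlap. The part of these cells in the differences was not tested. The GLOBAL and WM comparisons come from tables normalized apart, so their values are given side by side only: Ctsh differed from its own control by 0.51 in the one and 0.58 at 0 hr in the other, and Cst7 by 0.41 and 1.02.

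**Figure D4:**
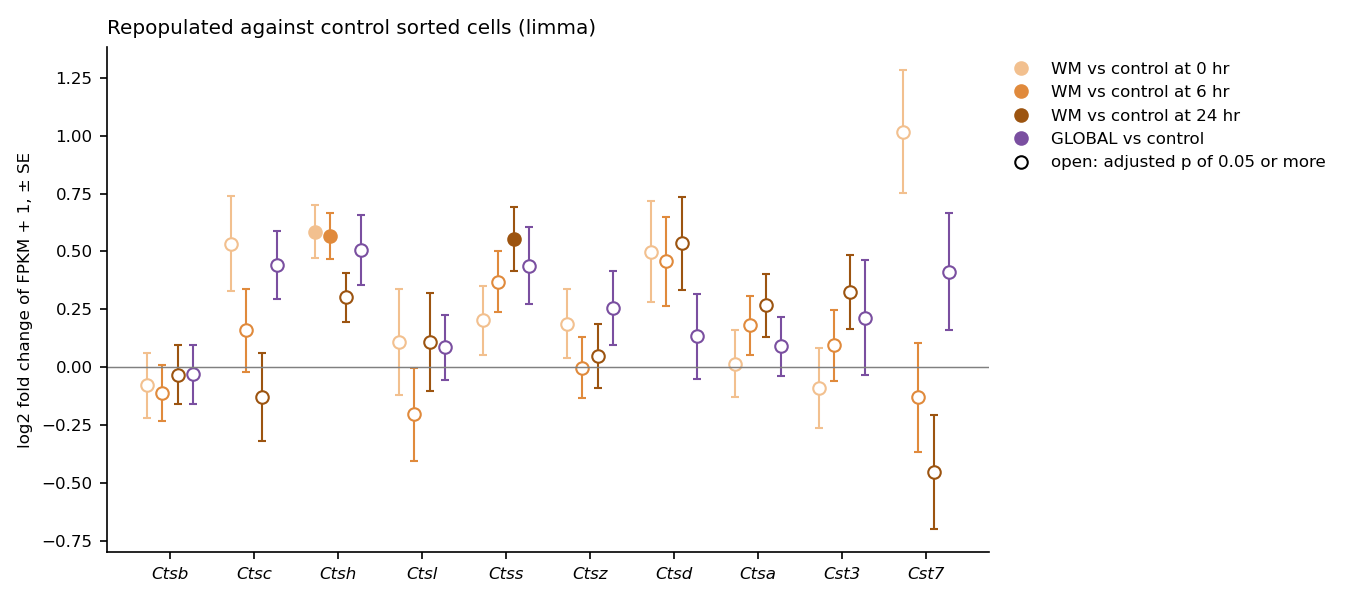
Log2 fold change of each member, on FPKM + 1, in WM-repopulated cells against control at 0, 6 and 24 hr of LPS and in GLOBAL-repopulated cells against their own control; bars are standard errors from limma, filled points passed an adjusted p under 0.05 and open points did not. Ctsh at 0 and 6 hr (0.58 and 0.57) and Ctss at 24 hr (0.56) passed, and no GLOBAL value did.

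The other genes of the lysosomal protease system were counted in the same fit. Of the 6 other cathepsins tested, 2 were lower and none higher at 6 hr in control cells, and 2 were lower and 1 higher in WM-repopulated cells, near the 42.5% and 38.8% called over all genes. Ctsf, a cysteine cathepsin, fell by 1.52 on the log2 scale in control (SE 0.142, limma adjusted p = 1.05e-08) and by 1.44 in WM-repopulated cells (adjusted p = 1.71e-08), and Ctso, a little studied relative named after its values were seen, by 1.02 and 0.98 (adjusted p = 2.42e-05 and 3.31e-05). At 24 hr against 0 hr 1 was lower in control cells, Ctsf (-0.88), and in WM-repopulated cells 2 were higher and 3 lower (21.3% and 18.8% of all genes were called), among them Ctsw, a cathepsin of cytotoxic lymphocytes (-1.15, adjusted p = 0.0145), and Ctse, an aspartic protease of endosomes (1.083, adjusted p = 0.0220). Ctse was also the 1 of these genes called between origins at 24 hr, where 3.97% of all genes were called (1.68% higher and 2.29% lower). It was at 7.01 ± 5.13 FPKM in WM-repopulated and 0.780 ± 0.662 FPKM in control cells (log2 fold change of FPKM + 1 2.06, SE 0.328, limma adjusted p = 0.000754). The control level lay under 1 FPKM, and the WM libraries spread widely.

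Of 12 other cystatins and stefins, 5 were listed and tested in the LPS table. Cstb (cystatin B), an inhibitor of cathepsins in the cytosol that was chosen after its values were seen, rose at 6 hr from 186 ± 34.8 to 389 ± 49.5 FPKM in control cells (log2 fold change 1.07, SE 0.226, limma adjusted p = 0.000498) and from 144 ± 9.54 to 373 ± 72.1 FPKM in WM-repopulated cells (1.35, adjusted p = 3.07e-05), opposite in direction to Cst3. At 24 hr 4 of the 5 were higher than at 0 hr in control and 3 in WM-repopulated cells, where 12.1% and 10.5% of all genes were called higher. The stefins Stfa1 and Stfa2 were called in both, up to 5.16 and 2.28 FPKM in control cells, and Stfa2l1 was called in control cells (log2 fold change 2.08, limma adjusted p = 0.0115), but near-identical copies share their reads and the split between them is uncertain. Neutrophils express stefins, and their marker sums were 1772 to 8660 FPKM at 0 hr and 6268 to 15120 at 24 hr in control cells, and 2786 to 10544 and 3121 to 7095 FPKM in WM-repopulated cells, overlapping between the times in both origins. Their part in the stefin calls was not tested.

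Of the sorting and maturation factors 8 of 9 were tested with LPS, and in each origin 1 was higher and 4 lower at 6 hr, where 42.5% and 38.8% of all genes were called, so that nothing was read from the count. Lgmn, the protease that processes cathepsins to their mature forms, fell by 1.03 on the log2 scale in control (limma adjusted p = 1.71e-05) and by 0.55 in WM-repopulated cells (adjusted p = 0.00701). Psap, the precursor of the saposins, fell by 0.77 and 0.92 (adjusted p = 0.00932 and 0.00203), and Gnptab, which helps make the mannose 6-phosphate tag that routes cathepsins to lysosomes, rose by 1.19 and 0.71 (adjusted p = 4.87e-05 and 0.00638). Glb1, the beta-galactosidase held in a complex with cathepsin A, fell by 1.02 and 0.96 (adjusted p = 5.44e-05 and 8.91e-05), whereas its other partner Neu1 was not called. In the SVZ Grn (progranulin), a lysosomal protein that microglia express, fell by 0.42 after PLX3397 (adjusted p = 0.0456) and was 0.51 lower than control in recovery (adjusted p = 0.0107), the 1 of 9 factors called in each, where 1.26% and 1.27% of all genes were called.

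Among the 4 MiT transcription factors, which read CACGTG, Tfec rose at 6 hr from 0.591 ± 0.601 to 13.9 ± 6.06 FPKM in control cells (log2 fold change 3.15, SE 0.374, limma adjusted p = 3.61e-07) and from 0.534 ± 0.554 to 15.1 ± 5.32 FPKM in WM-repopulated cells (3.40, adjusted p = 8.99e-08). By 24 hr it was at 1.95 ± 0.334 and 0.836 ± 0.727 FPKM. Tfeb, a main driver of lysosome formation, fell at 6 hr by 0.89 and 1.26 (adjusted p = 0.0168 and 0.00112). In these comparisons 42.5% and 38.8% of all genes were called. The summed level of the 4 factors overlapped between 0 and 6 hr in control cells (63.6 to 73.7 and 56.5 to 69.0 FPKM). In WM-repopulated cells it was lower at 6 hr without overlap (79.2 to 89.4 and 51.8 to 65.9 FPKM). None of the 3 serpins examined was called in any comparison.

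Over the 24 libraries of the LPS table the members fell into several patterns, given as descriptions, since libraries of the same group and LPS time share the treatment. The Pearson correlation of log2(FPKM + 1) was 0.837 for Ctsd with Cst3, 0.83 for Ctsh with Ctsz and 0.774 for Ctsh with Ctss, and -0.717 for Ctsc with Cst3 and -0.701 for Cst7 with Cst3. Outside the members, the genes most like Ctsd were Unc93b1 (0.936), Wbp2 (0.932) and St6galnac4 (0.921). Those most like Ctss were Tgif1 (0.840), Tceb3 (0.839) and Dnajb9 (0.837), and those most like Cst7 were Acp5 (0.843), Il2rg (0.836) and Pml (0.833).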

How the data were processed

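The deposited values are FPKM per gene and library in 3 tables. Per the submitters' processing notes and the study's methods, the authors aligned reads with STAR to mm10, counted them with featureCounts and used edgeR and limma to normalize and test. Library preparation differs between the labels and the methods. No column of per-sample values was left unused (0). Low values were whole multiples of 1 read (within a tolerance of 0.02) for 97.9% of 3259 genes in the LPS table and for 100% of 400 values per library in the others, which gave the depths.

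Genes at 1 FPKM or more in at least 3 libraries were kept, and log2(FPKM + 1) was fitted with limma 3.58.1 (R 4.3.3), all groups of a table in 1 model with a variance trend and Benjamini-Hochberg adjustment over all genes kept (called under 0.05). FPKM are not counts, so no count model was used for the results. On simulated data the fit recovered 85, 71 and 53 of 100 genes changed by 1 on the log2 scale, and 99, 96 and 94 of 100 changed by 2, in the SVZ (14151 genes), WM at 0 hr (12684) and GLOBAL (16651) comparisons. A gene of the microglial marker list is not reported here and was left out of its sums. Members and lists were chosen with earlier results of these data known. All 10 members are described, and of each other list the rule named at most 3 called genes per table, to which Ctso and Cstb were added after their values were seen. Alternatives were a pseudocount of 0.1, no filter, quantile normalization, no trend, a replicate block, only the groups compared, leaving out each library and, chosen after seeing the data, median scaling. Promoters came from RefSeq, with motif patterns shortened after a first search of the members had been seen, and transcripts from GENCODE. Plots used Python 3.11.15 and matplotlib 3.10.9.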

Additional observations from a re-analysis of the deposited data

Results flagged for a closer look

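In 11 of 87 member and group combinations of 4 or 5 libraries, 1 library stood apart from the rest of its group by Dixon's criterion. Chance gives about 5% of groups. In the SVZ the first control library had 14.8 FPKM of Ctsc against 3.98 to 6.01 in the other 4, 636 FPKM of Ctsd against 334 to 416, and 12.6 FPKM of Ctsh against 9.78 to 10.6. It is the library with 21303 FPKM of choroid plexus markers, and the part of that tissue in the values was not tested. Without it the control means go from 7.01 to 5.07 FPKM for Ctsc, from 428 to 375 FPKM for Ctsd and from 10.6 to 10.1 FPKM for Ctsh.

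In control cells at 24 hr, the fourth library had 352 FPKM of Ctsa against 530 to 565 and 621 FPKM of Ctsb against 825 to 833. It also had the lowest Ctsd of its group, at 1290 FPKM. Its microglial marker sum was 4603 FPKM, against 6622 to 8454 FPKM in the others. Over all genes its median correlation with its group was 0.949, against 0.9805 to 0.984 for the others. The part of these shifts in the values was not tested. The second control library at 6 hr had 1148 FPKM of Ctsl against 437 to 607, and 19011 FPKM of Cst3 against 12819 to 14452. Its neutrophil marker sum was 5626 FPKM, the highest of its group, where the next highest was 4077 FPKM. Its microglial and monocyte marker sums, 4159 and 1141 FPKM, were the lowest of the group. The part of these cells in the values was not tested. The Ctsl mean without this library goes from 634 to 506 FPKM.

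In WM-repopulated cells the first library at 6 hr had 939 FPKM of Ctsc against 460 to 508, and the mean without it goes from 602 to 489 FPKM. The third at 6 hr had 451 FPKM of Ctsa against 403 to 409. The fourth at 24 hr had 3132 FPKM of Ctsd against 3611 to 3662. In the GLOBAL table the third control had 2557 FPKM of Ctss against 2938 to 3004.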

How the results depend on the processing

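Counts of members called kept within 1.5 times under a pseudocount of 0.1, no variance trend and median scaling. In WM-repopulated against control cells at 24 hr the count of 1 went to 0 with no filter on low values, with quantile normalization and in a fit of only the groups compared, and to 0 to 1 on leaving out single libraries (0 without the first or second control or the first, the second or the third WM library at 24 hr). At 0 hr the count of 1 was 2 in a fit of only the groups compared and 0 to 2 on leaving out libraries, and at 6 hr it was 0 in that fit. From 6 to 24 hr the 6 members called in control cells became 2 in that fit and 3 to 6 on leaving out libraries. In WM-repopulated cells quantile normalization left 3 of 5 calls from 0 to 24 hr and 3 of 5 from 6 to 24 hr. The interaction at 24 hr had 0 to 1 calls on leaving out libraries. Under quantile normalization the log2 fold changes of Ctss and Cst3 in WM-repopulated cells at 24 hr against 0 hr became 0, since their ranks were the same in these libraries and equal ranks are given equal values.

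Leaving out libraries gave 3 to 4 members called for PLX3397 and 3 to 4 for recovery against control in the SVZ, and medians over the 9 members of 73.0 to 78.2% (75.5% with all) and 76.3 to 85.9% (80.1%) of the control mean. Ctsc in the SVZ moved from 22.6 to 31.3% (PLX3397) and from 40.6 to 56.2% (recovery) without the first control library. The call of Ctss from 6 to 24 hr in control cells was also lost with no filter (adjusted p = 0.129), while Ctsz after PLX3397 (0.0397), Ctsz at 24 hr in control (0.0193) and Ctss at 6 hr in WM-repopulated cells (-0.54, 0.0168) were called under quantile normalization. Single-gene calls were lost in 39 and gained in 10 of the cases that left out 1 library.

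A replicate block gave 3 members called in the SVZ against 4. Correlations of the deviations of same-numbered libraries were -0.155 to 0.486 in the SVZ, -0.19 to 0.266 in the LPS table and 0.0562 to 0.137 in the GLOBAL table (2 of 3 above 0.1), not above 0.1 for every pair in any table, so the numbers were not taken to pair the samples. In the GLOBAL comparison the block called 55 genes (0.33%) against 0 without it, none of them a member. The block ended the calls of Ctsd after PLX3397 (adjusted p = 0.0730) and of Ctsl and Ctss from 6 to 24 hr in control cells (0.0743 and 0.0565), and no other member's call, by limma.

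Values rest on 3 to 5 mice a group, the 7 GLOBAL libraries are the shallowest, and a change of 1 on the log2 scale would often be missed there. FPKM is relative to each library's total, so a fall of Cst3, a large share of that total, is a change in share.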

Other observations

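Cst3 took 5.08 to 6.24% of the summed FPKM of sorted libraries without LPS in the LPS table, 2.60 to 3.92% at 6 hr and 2.36 to 3.29% at 24 hr. All members together took 9.35 to 10.7% in WM-repopulated cells without LPS, 5.89 to 7.51% at 6 hr and 6.98 to 7.85% at 24 hr, against 5.57 to 5.83% and 5.74 to 6.44% in control cells at 6 and 24 hr. In the SVZ the members' share was 0.573 to 0.641% after PLX3397 and 0.586 to 0.727% in recovery. These shares were not tested.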
